A study of Homo sapiens with 12 samples.

Results

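The transcripts of 10 regulators of the G1 phase were followed through the 12 RNA sequencing libraries of the study: the D-type cyclins CCND1, CCND2 and CCND3, the kinases CDK4 and CDK6, the CDK inhibitors CDKN1B, CDKN1C, CDKN2A and CDKN2C, and RB1. They were taken by symbol from a table of 23500 genes, in which CDKN1C has 2 entries, so that 11 rows carry the 10 symbols. HEK293T cells are human embryonic kidney cells transformed with adenovirus 5 DNA that carry SV40 large T antigen, a viral protein that inactivates RB and p53. R1 is a clone selected from HEK293T for growth without methionine, so that it stands for 1 clone. The titles of its libraries say R1, although the label of their cell line says HEK293T. Both were kept for 12 h in medium with methionine (+Met) or in medium in which homocysteine, its precursor, replaces it (−Met+Hcy), and each of the 4 groups holds 3 libraries. The comparison of media addresses how the cell cycle machinery responds in a line that stops growing in −Met+Hcy and in a clone that does not. The paper reports that HEK293T cells released into −Met+Hcy from a block in early S phase arrested in S/G2, while R1 cells kept cycling.

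D-type cyclins bind CDK4 or CDK6, and the active kinase phosphorylates RB1, which then releases E2F transcription factors that switch on genes for S phase. CDK inhibitors of the INK4 family, among them the products of CDKN2A and CDKN2C, bind CDK4 and CDK6 themselves, whereas the CIP/KIP inhibitors CDKN1B (p27) and CDKN1C (p57) act mainly on complexes of CDK2 and also take part in the assembly of cyclin D complexes. Many of these proteins are regulated by synthesis, phosphorylation and destruction, so that a transcript level is one part of their control.

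The total estimated count per library ran from 12664158 to 18771349. Levels are CPM, which are counts scaled to the library total. Fold changes are those of edgeR's quasi-likelihood model after TMM scaling, which allows for differences in RNA composition, and a gene was called at a Benjamini-Hochberg adjusted p under 0.05 over all 17162 genes tested. The 2 scales differ: against HEK293T +Met, TMM scaling lowers the other 3 groups by 0.29 to 0.35 on the log2 scale, so that ratios of CPM run higher than the fold changes. With column-sum scaling the median gene lay at a log2 fold change of 0.33 between the media in HEK293T cells, and with TMM at 0.03. R1 −Met+Hcy replicate 3 stands apart, with a chi-square per gene of 214 and 245 against the other libraries of its group where the other pairs of replicates reach at most 94.6, and with 8.72% of its counts from mitochondrial genes against 2.38 to 5.24% elsewhere. The common dispersion of the model was 0.109 with this library and 0.0349 without it, where 17069 genes were tested, and each test of a member is therefore given for the 12 libraries and for the 11 without it. All 10 markers of HEK293T cells examined were detected in every group, and of 10 markers of MDA-MB-468, the other parental line of the study, KRT5 and S100A8 were at 0 in all 12 libraries. The summed level of those 10 was 4.07 to 10.7 CPM in HEK293T and 11.2 to 23.8 CPM in R1 libraries, of which EGFR made up 2.57 to 5.68 and 8.20 to 19.1 CPM, and the part of this in the differences between the lines was not tested. Nothing in the labels says that the replicates came from separate cultures, and p-values then measure only the spread between these libraries. In bulk RNA, a change in the share of cells in a phase and a change in RNA per cell cannot be told apart.

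Promoter sequence from RefSeq (GRCh38.p14) was at hand for 7 of the 10 genes: CCND3, CDK4, CDK6, CDKN1B, CDKN2A, CDKN2C and RB1. They have 13 listed starts. The windows of CCND3, CDK4, CDKN1B and RB1 lie inside the annotated span of the gene, as do 1 of 2 for CDK6, 1 of 2 for CDKN2A and 2 of 3 for CDKN2C. That of RB1 starts at 48476200 on chromosome 13, whereas the gene starts at 48303744. The bases before the annotated start of RB1 were therefore not searched. The 250 bases before each start were searched on both strands for TTTCCCGC and TTTGGCGC, forms of the E2F site, for TGATGNAA, the core of the ATF4 response element, for TGACGTCA, the cyclic AMP response element, and for CACGTG, the E-box bound by MYC and related factors. CACGTG and TGACGTCA read the same on both strands, and no motif contains another. Of the 5, CACGTG alone occurred, in 3 of the 13 windows, where 6.34% of all 35116 windows in the table hold it. Counted by gene, it occurred in 2 of the 7, CDK4 and CDKN2C, where 7.73% of 27305 genes have it in 1 window or more. The other motifs, which occur in 0.55 to 3.14% of all windows, were found in 0 of the 13, which says only that these letters are not in these windows. The 250 bases before the start are shown for CDK4, which holds 3 copies of CACGTG (at -216, -196 and -101 from the start), for the 2 starts of CDKN2C with 1 copy each (at -220 and -69), and for the 2 starts of CDKN2A, whose products p14ARF and p16INK4a differ in their first exon but are summed in 1 row of the table. Each runs 5′ to 3′ on the strand of the gene, with CACGTG in capitals.
CDK4, chr12:57752311-57752560, minus strand: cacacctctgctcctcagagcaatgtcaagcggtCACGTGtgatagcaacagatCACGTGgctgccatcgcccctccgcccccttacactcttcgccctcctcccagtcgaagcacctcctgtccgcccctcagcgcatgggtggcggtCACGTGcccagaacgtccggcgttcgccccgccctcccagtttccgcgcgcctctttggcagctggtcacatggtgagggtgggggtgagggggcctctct
CDKN2C, first start, chr1:50960495-50960744, plus strand: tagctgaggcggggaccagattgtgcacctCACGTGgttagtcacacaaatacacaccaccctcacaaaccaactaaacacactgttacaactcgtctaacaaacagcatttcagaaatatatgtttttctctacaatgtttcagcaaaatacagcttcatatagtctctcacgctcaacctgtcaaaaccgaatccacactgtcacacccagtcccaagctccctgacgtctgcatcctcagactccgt
CDKN2C, last start, chr1:50969995-50970244, plus strand: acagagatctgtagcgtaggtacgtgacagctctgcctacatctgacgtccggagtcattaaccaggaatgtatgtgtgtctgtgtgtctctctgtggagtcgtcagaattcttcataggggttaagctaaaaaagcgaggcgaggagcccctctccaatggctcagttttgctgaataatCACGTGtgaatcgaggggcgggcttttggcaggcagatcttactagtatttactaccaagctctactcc
CDKN2A, upstream start, chr9:21995325-21995574, minus strand: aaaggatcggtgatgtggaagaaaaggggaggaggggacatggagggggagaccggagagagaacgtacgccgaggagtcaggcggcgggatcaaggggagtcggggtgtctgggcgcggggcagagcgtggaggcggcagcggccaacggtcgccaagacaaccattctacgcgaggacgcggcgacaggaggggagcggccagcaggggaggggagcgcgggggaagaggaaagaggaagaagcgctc
CDKN2A, downstream start, chr9:21974858-21975107, minus strand: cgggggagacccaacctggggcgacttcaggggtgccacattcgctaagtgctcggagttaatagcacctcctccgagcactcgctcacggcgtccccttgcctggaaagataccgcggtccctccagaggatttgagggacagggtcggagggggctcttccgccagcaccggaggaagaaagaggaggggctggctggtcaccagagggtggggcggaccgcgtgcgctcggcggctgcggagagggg

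CCND1 and CCND3 fell in HEK293T cells without methionine in the fit to 11 libraries, and CCND3 was higher in R1 than in HEK293T cells in both media in that fit. The summed level of the 3 D-type cyclins was 94.1 CPM ± 3.24 (SD, n = 3) in HEK293T +Met, 71.5 ± 7.22 in HEK293T −Met+Hcy, 127 ± 13.3 in R1 +Met and 73.6 ± 48.8 in R1 −Met+Hcy, where the library that stands apart had 17.8 CPM. These sums are without TMM scaling, which lowers R1 +Met by 0.35 on the log2 scale against HEK293T +Met. CCND1 (cyclin D1, ENSG00000110092, chromosome 11 of GRCh38 from 69641156 to 69654474) had 50.5, 50.9 and 45.0 CPM in the HEK293T +Met libraries and 43.5, 33.2 and 27.6 CPM in −Met+Hcy. All 3 libraries in −Met+Hcy lay below all 3 in +Met. The log2 fold change was -0.79 (SE 0.462, adjusted p = 0.338 by edgeR with 12 libraries), and without R1 −Met+Hcy replicate 3 it was the same with an SE of 0.163 (adjusted p = 0.00373). In R1 cells CCND1 had 44.8, 33.6 and 48.3 CPM in +Met and 32.1, 37.7 and 4.95 CPM in −Met+Hcy. The media overlapped, and the last value, that of the library that stands apart, was the lowest of all 12. In +Met, CCND1 lay lower in R1 by a log2 fold change of -0.57 (adjusted p = 0.476 with 12 libraries and 0.0185 with 11).

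CCND3 (cyclin D3, ENSG00000112576, chromosome 6 from 41934934 to 42050357) had 33.0, 26.8 and 30.7 CPM in HEK293T +Met and 20.7, 22.4 and 24.3 CPM in HEK293T −Met+Hcy. In R1 cells it had 71.5, 65.2 and 63.8 CPM in +Met and 48.4, 55.5 and 10.2 CPM in −Met+Hcy. Each R1 library except the one that stands apart was above every HEK293T library, and in each line the media did not overlap. In HEK293T cells the log2 fold change between media was -0.72 (adjusted p = 0.313 with 12 libraries and 0.00318 with 11). In R1 cells it was -0.83 (SE 0.397, adjusted p = 0.622) with 12 libraries and -0.41 (SE 0.158, adjusted p = 0.609) with 11. CCND3 was higher in R1 than in HEK293T by a log2 fold change of 0.79 in +Met (SE 0.142 with 11 libraries, adjusted p = 0.232 with 12 and 0.00135 with 11). In −Met+Hcy the log2 fold change between the lines was 0.68 with 12 libraries (adjusted p = 0.279) and 1.10 with 11 (adjusted p = 0.00028).

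CCND2 (cyclin D2, ENSG00000118971, chromosome 12 from 4269771 to 4305353) ran from 12.6 to 16.0 CPM over the HEK293T libraries and from 12.7 to 20.2 CPM over the R1 libraries apart from R1 −Met+Hcy replicate 3, which had 2.61 CPM. Its log2 fold change between media in HEK293T cells was -0.38 (adjusted p = 0.648 with 12 libraries and 0.114 with 11), and it was not called in any comparison in either fit. Its exons share 999 bases with another protein-coding gene of the table on the same strand (ENSG00000285901), so that kallisto could have split reads between them. CCND1 shares 497 exonic bases with LTO1 on the opposite strand, and whether the counting used strand is not given in the sources used here.

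Per kilobase of the canonical transcript, CCND3 made up 51.7% ± 3.45 (SD, n = 3) of the D-cyclin level in HEK293T +Met and 51.9% ± 6.67 in HEK293T −Met+Hcy, against 72.4% ± 3.99 in R1 +Met and 72.7% ± 3.05 in R1 −Met+Hcy. The share of CCND1 was 40.1% ± 2.91, 37.9% ± 6.75, 21.8% ± 2.99 and 21.1% ± 2.96 in the same order, and CCND2 was between 4.65 and 10.8% in every library. The highest share of CCND3 in an HEK293T library was 57.8%, and the lowest in an R1 library was 68.5%. The library that stands apart gave 76.3%, within the range of the R1 +Met libraries. Between the media the shares of CCND1 and CCND3 overlapped in each line. The share of CCND2 was higher without overlap in HEK293T −Met+Hcy (10.2% ± 0.777, SD, n = 3) than in HEK293T +Met (8.14% ± 0.924), and overlapped in R1.

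**Figure D1:**
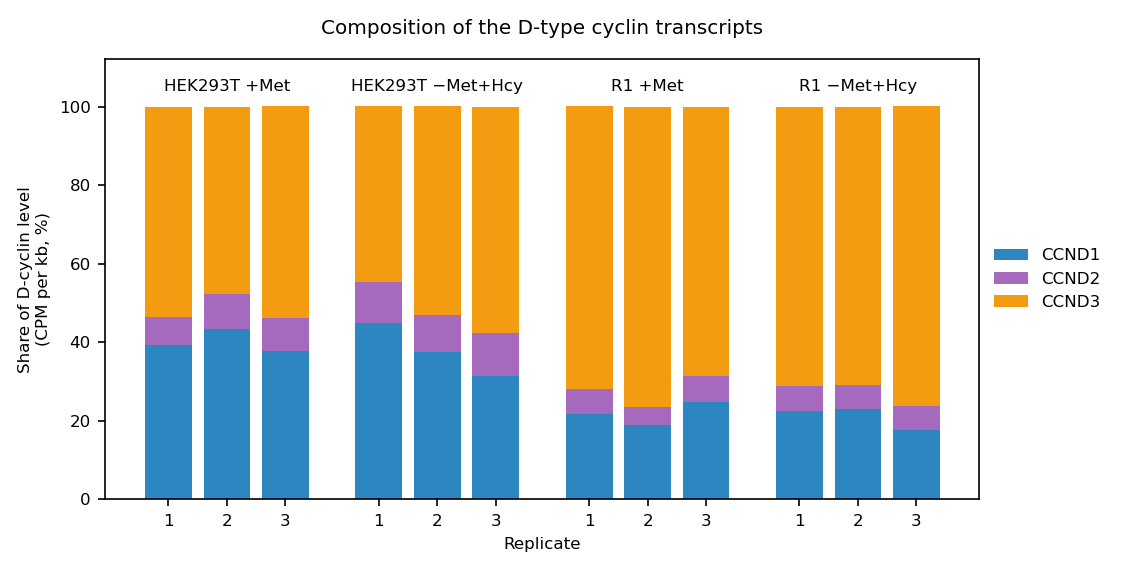
Share of each D-type cyclin in the summed level of the 3 (CPM per kilobase of the canonical transcript, percent), in each of the 12 libraries. CCND3 is at 44.7 to 57.8% in the 6 HEK293T libraries and at 68.5 to 76.5% in the 6 R1 libraries.

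Per kilobase of transcript, CDK4 had the highest mean level of the 10 in each group, between 140 and 203 CPM per kb, followed by CDKN2A, between 118 and 170. CDK4 (ENSG00000135446, chromosome 12 from 57747727 to 57756013), the catalytic partner of the D cyclins, had 378, 343 and 373 CPM in HEK293T +Met, 338, 386 and 410 CPM in HEK293T −Met+Hcy, 359, 368 and 327 CPM in R1 +Met, and 353, 326 and 106 CPM in R1 −Met+Hcy. Apart from the last value, the 4 groups overlapped. The log2 fold change between media was -0.24 in HEK293T cells (SE 0.142 with 11 libraries, adjusted p = 0.693 with 12 and 0.232 with 11) and turned to 0.05 with column-sum scaling. Against HEK293T in +Met, the R1 value was -0.41 (adjusted p = 0.432 with 12 libraries and 0.0449 with 11), and with column-sum scaling -0.05. CDK4 shares 1369 exonic bases with TSPAN31 on the opposite strand.

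CDK6 (ENSG00000105810, chromosome 7 from 92604921 to 92836573), the other kinase of the D cyclins, had 7.07, 14.0 and 16.0 CPM in HEK293T +Met and 17.4 to 19.3 CPM in HEK293T −Met+Hcy. The R1 +Met libraries had 23.9, 15.4 and 26.1 CPM, and those in −Met+Hcy 15.2, 19.6 and 8.20 CPM. It was called in no comparison in either fit, with a log2 fold change between media of 0.28 in HEK293T cells (adjusted p = 0.658 with 12 libraries and 0.445 with 11). Per kilobase, CDK6 stood at 1.06 CPM per kb ± 0.402 (SD, n = 3) in HEK293T +Met, where CDK4 stood at 195 (SD 10).

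**Figure D2:**
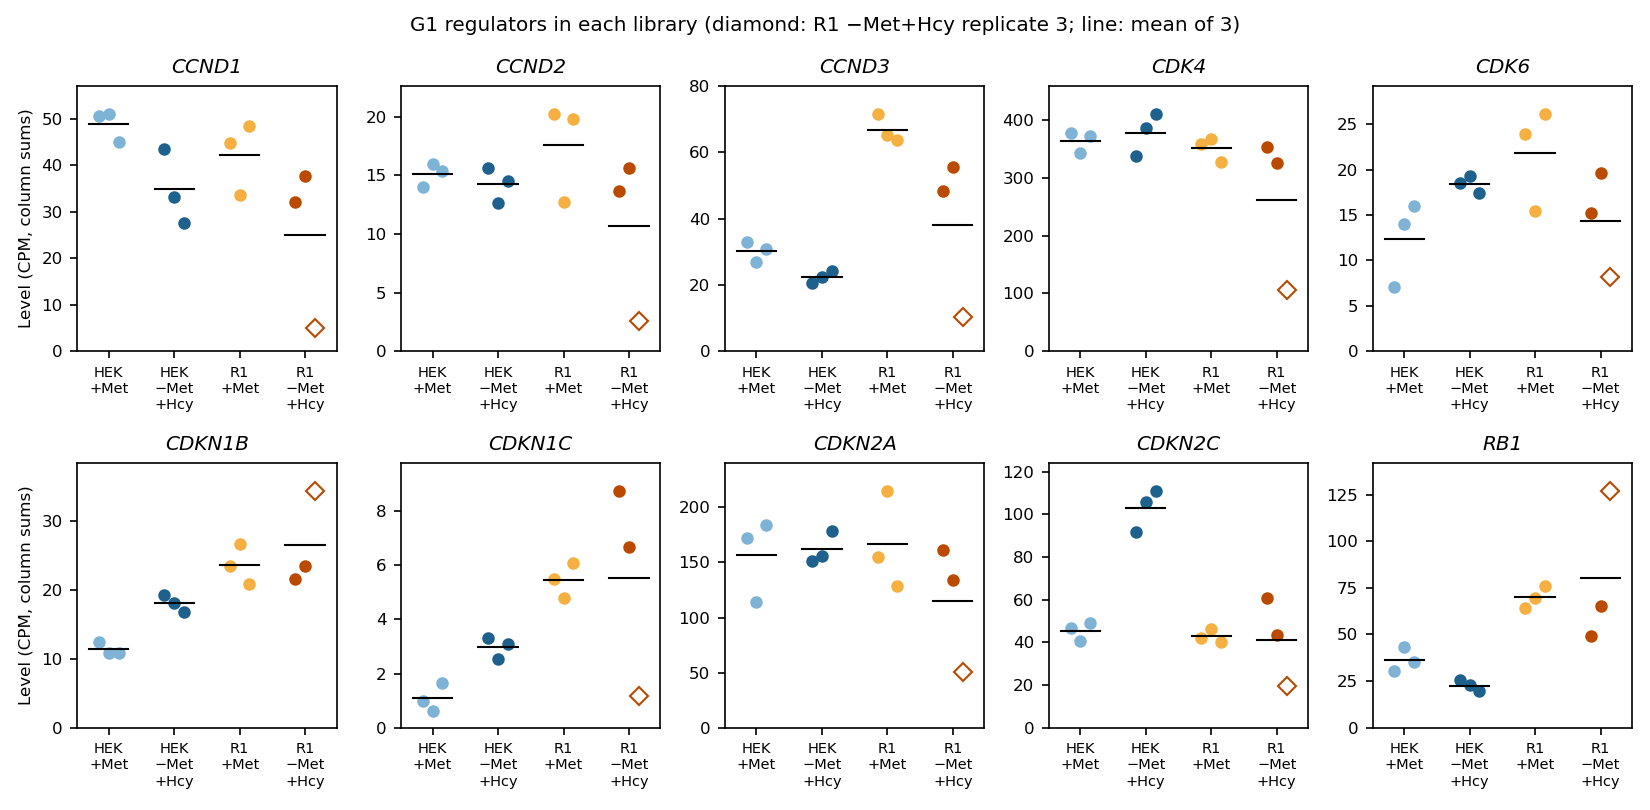
Level of each of the 10 genes (CPM from the library totals, linear axes from 0) in the 12 libraries; points are libraries, lines the means of 3, and the open diamond is R1 −Met+Hcy replicate 3. CDKN2C is at 91.7 to 111 CPM in HEK293T −Met+Hcy and at 40.0 to 49.0 CPM in both +Met groups, and CCND3 is at 63.8 to 71.5 CPM in R1 +Met against 26.8 to 33.0 CPM in HEK293T +Met.

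The inhibitor CDKN2C rose 1.85-fold in HEK293T cells without methionine in the fit to 11 libraries, and it was lower in R1 than in HEK293T cells in −Met+Hcy in both fits. CDKN2C (p18INK4c, ENSG00000123080, chromosome 1 from 50960745 to 50974634) had 46.6, 40.8 and 49.0 CPM in HEK293T +Met and 91.7, 106 and 111 CPM in −Met+Hcy. In R1 cells it had 42.2, 46.1 and 40.0 CPM in +Met and 60.8, 43.5 and 19.3 CPM in −Met+Hcy. The HEK293T −Met+Hcy libraries were above the other 9, and the R1 media overlapped. In HEK293T cells the log2 fold change was 0.89 (SE 0.286, adjusted p = 0.0859 with 12 libraries), and with 11 libraries the SE was 0.166 and the adjusted p 0.00216. In R1 cells it was -0.06 (adjusted p = 0.949) with 12 and 0.24 (adjusted p = 0.891) with 11. In −Met+Hcy, CDKN2C was lower in R1 by a log2 fold change of -1.38 (SE 0.289, 2.61-fold, adjusted p = 0.00817) with 12 libraries and -1.09 (adjusted p = 0.00113) with 11. In +Met it was -0.44 (adjusted p = 0.358 with 12 libraries and 0.059 with 11).

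The count of CDKN2C relative to that of CDK4, the kinase its product inhibits, does not depend on how libraries are scaled, although their transcripts differ in GC content (44.9% and 52.0%). It was 0.123, 0.119 and 0.132 in HEK293T +Met and 0.271, 0.275 and 0.270 in HEK293T −Met+Hcy. In R1 it was 0.118, 0.125 and 0.122 in +Met and 0.172, 0.134 and 0.183 in −Met+Hcy. In each line the −Met+Hcy libraries were above the +Met libraries, also in the library that stands apart, and those of R1 were below those of HEK293T.

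CDKN2A (ENSG00000147889, chromosome 9 from 21967752 to 21995301), which encodes the CDK4 and CDK6 inhibitor p16INK4a and, from the upstream start shown above, p14ARF, is the other INK4 member. It had 172, 114 and 184 CPM in HEK293T +Met, 151, 156 and 179 CPM in HEK293T −Met+Hcy, 155, 215 and 129 CPM in R1 +Met, and 161, 134 and 50.5 CPM in R1 −Met+Hcy. The 4 groups overlapped, and it was called in no comparison in either fit. The summed level of CDKN2A and CDKN2C was 202 CPM ± 41.3 (SD, n = 3) in HEK293T +Met and 265 ± 23.7 in HEK293T −Met+Hcy, and 209 ± 47.0 and 156 ± 78.3 in R1. These sums are without TMM scaling, which lowers HEK293T −Met+Hcy by 0.29 on the log2 scale against HEK293T +Met. The log2 fold change of CDKN2A between media in HEK293T cells was -0.25 (adjusted p = 0.717 with 12 libraries and 0.451 with 11) and 0.05 with column-sum scaling. Which of the 2 products the counts come from cannot be read from a row that sums them.

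The CIP/KIP genes were both higher in R1 than in HEK293T cells in +Met in the fit to 11 libraries, and CDKN1C in that to 12. Their summed level, without TMM scaling, was 12.6 CPM ± 1.30 (SD, n = 3) in HEK293T +Met and 21.1 ± 1.36 in HEK293T −Met+Hcy, and 29.2 ± 2.25 and 32.3 ± 3.51 in R1. TMM scaling lowers the other 3 groups by 0.29 to 0.35 on the log2 scale against HEK293T +Met. CDKN1B (p27, ENSG00000111276, chromosome 12 from 12685498 to 12722369) had 12.5, 10.8 and 10.8 CPM in HEK293T +Met and 19.3, 18.1 and 16.8 CPM in −Met+Hcy. The R1 libraries had 23.5, 26.7 and 20.9 CPM in +Met and 21.6, 23.5 and 34.4 CPM in −Met+Hcy. All 6 R1 libraries were above all 6 HEK293T libraries. The log2 fold change of R1 against HEK293T in +Met was 0.71 (SE 0.253, adjusted p = 0.0977 with 12 libraries, and 0.00293 with 11). Between media in HEK293T cells it was 0.37 (SE 0.253, adjusted p = 0.419 with 12 libraries and 0.0764 with 11), so that CDKN1B did not pass the test there, although the media did not overlap.

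CDKN1C (p57, ENSG00000129757, chromosome 11 from 2883213 to 2885775) had the lowest level of the 10 per kilobase in HEK293T +Met. Its libraries there held 16, 9 and 27 counts, or 1.00, 0.616 and 1.65 CPM, and it had 3.30, 2.53 and 3.09 CPM in HEK293T −Met+Hcy. It had 5.51, 4.78 and 6.08 CPM in R1 +Met and 8.75, 6.66 and 1.17 CPM in R1 −Met+Hcy. Each R1 library except the one that stands apart was above every HEK293T library. In +Met, CDKN1C was higher in R1 by a log2 fold change of 1.95 (SE 0.571, 3.85-fold, adjusted p = 0.0498 with 12 libraries and 0.000622 with 11). The 12-library call was lost with RLE scaling, without a filter and with the replicate block (adjusted p = 0.0504 to 0.0882), and when any 1 of 10 of the 12 libraries was left out (up to 0.159), whereas without R1 −Met+Hcy replicate 1 or 3 it passed. Between media in HEK293T cells the log2 fold change was 1.13 (adjusted p = 0.267 with 12 libraries and 0.0201 with 11), and in −Met+Hcy that between the lines was 0.81 (adjusted p = 0.343) with 12 libraries and 1.27 (adjusted p = 0.00744) with 11. A second entry of CDKN1C (ENSG00000273707), not part of the primary annotation, had at most 0.799 CPM, in R1 −Met+Hcy replicate 3. With both entries added and that library left out, CDKN1C did not pass between media in HEK293T cells (adjusted p = 0.0536).

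RB1 fell in HEK293T cells without methionine and was higher in R1 than in HEK293T in both media in the fit to 11 libraries, and in the fit to 12 it was higher in R1 in −Met+Hcy. RB1 (ENSG00000139687, chromosome 13 from 48303744 to 48599436), whose protein holds back E2F and is itself bound by large T antigen in these cells, had 30.5, 43.0 and 35.0 CPM in HEK293T +Met and 25.3, 22.6 and 19.7 CPM in −Met+Hcy. In R1 it had 64.1, 69.5 and 76.0 CPM in +Met and 49.0, 65.0 and 127 CPM in −Met+Hcy. In CPM all 6 R1 libraries were above all 6 HEK293T libraries, and the highest value was that of the library that stands apart. After TMM scaling the lines stayed apart within each medium but not across the media. In −Met+Hcy the log2 fold change between the lines was 1.88 (SE 0.343, 3.67-fold, adjusted p = 0.00395) with 12 libraries and 1.24 (SE 0.165, 2.36-fold, adjusted p = 0.000185) with 11. In +Met it was 0.60 (adjusted p = 0.281 with 12 libraries and 0.00901 with 11). Between media in HEK293T cells it was -0.98 (SE 0.337, adjusted p = 0.106) with 12 libraries, and with 11 the SE was 0.152 and the adjusted p 0.000705.

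R1 −Met+Hcy replicate 3 moved the members in unlike directions. Relative to the mean of the other libraries of its group, it held 0.142 times the level of CCND1, 0.152 times that of CDKN1C and 0.197 times that of CCND3, but 1.53 times that of CDKN1B and 2.23 times that of RB1. RB1 has the lowest GC content of the 10 transcripts (37.1%) and CDKN1C the highest (62.9%). The order of the others was mixed. CDK6 (39.7%) and CDKN2C (44.9%) stood at 0.472 and 0.37 times, and CDKN1B (45.9%) at 1.53 times. Over 11043 genes, this library's deviation from the mean of its group had a Spearman's rho of -0.744 with GC content, against -0.338 to 0.537 in the libraries of the other 3 groups. Replicates 1 and 2 of its own group had 0.6 and 0.73, and since the 3 deviations share 1 mean, each library also moves the values of the others. These are correlations across genes, which are not independent replicates, and the part of GC content in the members' values was not tested.

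**Figure D3:**
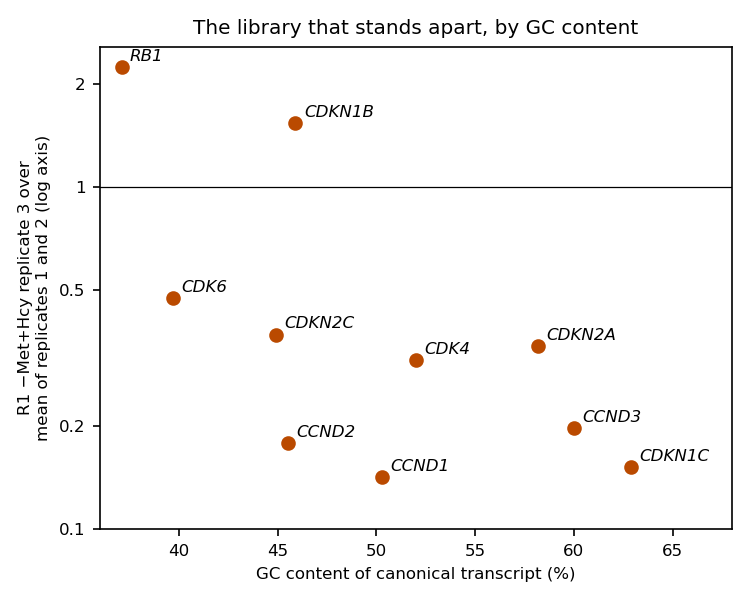
Level in R1 −Met+Hcy replicate 3 divided by the mean of replicates 1 and 2 (log axis), against the GC content of the canonical transcript (percent), for the 10 genes. RB1 (2.23) and CDKN1B (1.53) are above 1, and the other 8 lie between 0.142 and 0.472.

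Between media in HEK293T cells, edgeR called 0 of the 10 genes with 12 libraries (2 at an unadjusted p under 0.05, CDKN2C and RB1), where it called 7.03% of all genes tested (22.4% at an unadjusted p under 0.05). DESeq2 called 2, CDKN2C and RB1, where it called 13.9% of all genes. Without R1 −Met+Hcy replicate 3, which enters this comparison only through the shared dispersion, scaling and filter, edgeR called 5: CDKN1C and CDKN2C rose, and CCND1, CCND3 and RB1 fell, where 27.7% of all genes were called. After TMM scaling the media did not overlap for 7 members. Of these CDKN1B, CDKN1C and CDKN2C were higher in −Met+Hcy (24.8% of all genes were) and CCND1, CCND2, CCND3 and RB1 lower (20.6% of all genes were).

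Between media in R1 cells, edgeR called 0 of the 10 with 12 libraries, with 0 at an unadjusted p under 0.05, and 0 with 11, with 1 (CCND3) at an unadjusted p under 0.05. DESeq2 called 0 in either case. The share of all genes called by edgeR was 0.00583% with 12 libraries and 0.0176% with 11, that at an unadjusted p under 0.05 was 7.78% and 7.06%, and that called by DESeq2 was 0.253% and 0.384%. With 11 libraries the members' log2 fold changes ran from -0.41 (CCND3) to 0.46 (CDKN1C), with SEs of 0.158 to 0.294. After TMM scaling 0 members were higher and 1, CCND3, lower without overlap between the media, against 4.89% and 5.72% of all genes.

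The difference between the responses of the 2 lines was called for 0 of the 10 by edgeR with 12 libraries (2 at an unadjusted p under 0.05) and for 0 with 11 (3 at an unadjusted p under 0.05), and for 0 by DESeq2 in either case. The share of all genes called by edgeR was 0.0583% with 12 libraries and 1.68% with 11, that at an unadjusted p under 0.05 was 9.67% and 16.6%, and that called by DESeq2 was 1.73% and 6.80%. For CDKN2C the difference, R1 response minus HEK293T response, was -0.94 (SE 0.403, adjusted p = 0.496) on the log2 scale with 12 libraries and -0.65 (SE 0.249, adjusted p = 0.212) with 11. For RB1 it was 1.28 (adjusted p = 0.42) and 0.64 (SE 0.223, adjusted p = 0.167). In these fits the rise of CDKN2C and the fall of RB1 in HEK293T cells are not shown to differ from the values in R1 cells. For CDKN2C the difference passed in an alternative chosen after seeing the data, with each library's trend on GC content and length removed and R1 −Met+Hcy replicate 3 left out (-0.987, edgeR adjusted p = 0.00436), where 8.53% of all genes were called.

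Between the lines in +Met, edgeR called 1 of the 10 with 12 libraries (CDKN1C, higher in R1), where it called 10.2% of all genes. It called 6 with 11 libraries, where it called 32.7% of all genes: CCND3, CDKN1B, CDKN1C and RB1 were higher in R1, and CCND1 and CDK4 lower. In −Met+Hcy it called 2 with 12 libraries (RB1 higher and CDKN2C lower in R1), where it called 14.0% of all genes. With 11 libraries it called 4, where it called 30.3% of all genes: CCND3, CDKN1C and RB1 were higher and CDKN2C lower in R1. CDKN1C in +Met and RB1 and CDKN2C in −Met+Hcy passed in both fits. On the libraries in −Met+Hcy alone, R1 −Met+Hcy replicate 3 included, RB1 (adjusted p = 0.0659) and CDKN2C (adjusted p = 0.0902) did not pass. After TMM scaling the lines did not overlap in +Met for 4 members higher in R1 (22.2% of all genes were) and 3 lower (20.7%), and in −Met+Hcy for 2 higher (13.6%) and 1 lower (18.9%). These comparisons share libraries with those between media and are not independent of them.

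**Figure D4:**
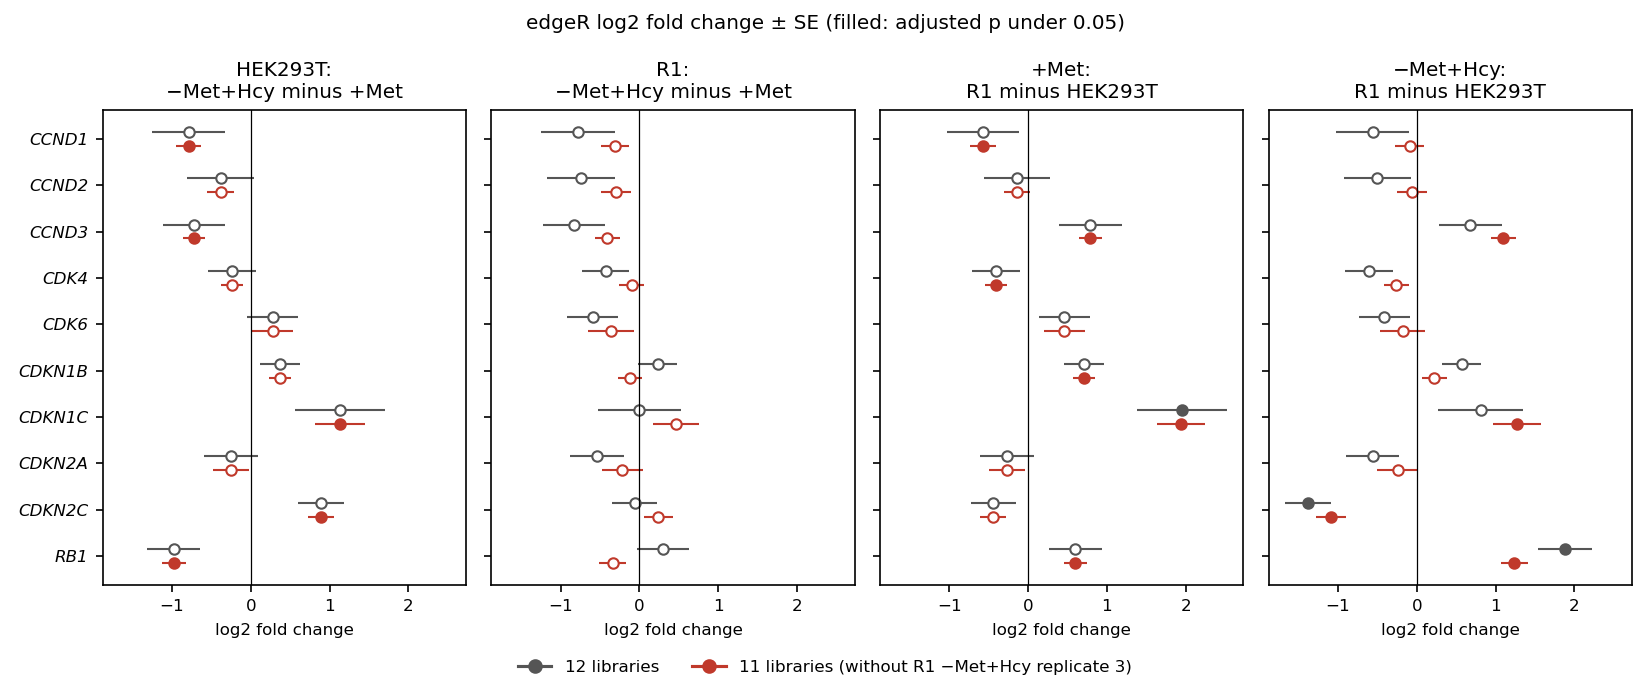
Log2 fold change of each of the 10 genes with its SE (edgeR, after TMM scaling) in 4 comparisons, from 12 libraries (grey) and from the 11 without R1 −Met+Hcy replicate 3 (red); filled points passed an adjusted p under 0.05. In HEK293T cells the point estimates are the same in both fits and the SEs are smaller in the second, for example 0.337 and 0.152 for RB1.

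The CDK inhibitors that are not among the 10 were followed as a list of 4: CDKN1A, CDKN2B, CDKN2D and CDKN3. In HEK293T cells 1 of the 4 was called higher in −Met+Hcy with 12 libraries, where 7.03% of all genes were called, and 3 with 11, where 27.7% were, and the median log2 fold change was 1.02 against 0.03 over all genes tested. CDKN2B (p15INK4b), another inhibitor of CDK4 and CDK6, had 1.31, 2.12 and 1.65 CPM in +Met and 6.94, 5.17 and 5.2 CPM in −Met+Hcy (log2 fold change 1.47, SE 0.323, adjusted p = 0.0195 with 12 libraries and 0.00141 with 11). CDKN2D (p19INK4d) had 2.63, 3.63 and 3.18 CPM in +Met and 7.64, 6.76 and 8.88 CPM in −Met+Hcy (log2 fold change 1.01, adjusted p = 0.211 with 12 libraries and 0.00411 with 11). CDKN1A (p21), a target of p53, had 1.81, 1.16 and 1.65 CPM in +Met and 4.63, 3.29 and 3.75 CPM in −Met+Hcy (log2 fold change 1.02, adjusted p = 0.255 with 12 libraries and 0.0281 with 11). For these 3 genes the media did not overlap in CPM, with −Met+Hcy higher, as for 38.6% of all genes tested. CDKN3, a phosphatase that acts on CDK2, had a log2 fold change of -0.65 (adjusted p = 0.432 with 12 libraries and 0.0966 with 11). In R1 cells 0 of the 4 were called in either fit, where 0.00583% and 0.0176% of all genes were called, and with 11 libraries their median log2 fold change was 0.05. CDKN1A was higher in R1 than in HEK293T in +Met by 1.5 on the log2 scale (adjusted p = 0.0798 with 12 libraries and 0.00285 with 11). CDKN3 was lower there with 11 libraries (-1.15, adjusted p = 0.0077), where 32.7% of all genes were called. In −Met+Hcy, CDKN2B (-0.85, adjusted p = 0.0353) and CDKN2D (-0.9, adjusted p = 0.0127) were lower in R1 with 11, where 30.3% were called. With 12 libraries 0 of the 4 were called between the lines, against 10.2% of all genes in +Met and 14.0% in −Met+Hcy.

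**Figure D5:**
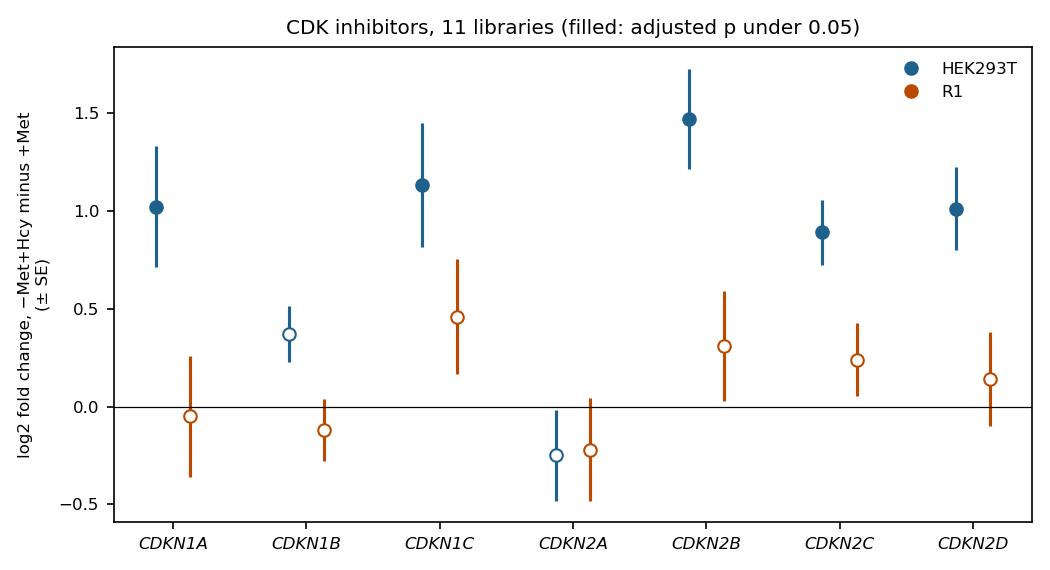
Log2 fold change between media (−Met+Hcy minus +Met) with its SE for 7 inhibitors of the CIP/KIP and INK4 families in HEK293T and R1 cells, from 11 libraries; filled points passed an adjusted p under 0.05. In HEK293T cells 5 of the 7 passed, at 0.89 to 1.47, where 27.7% of all genes did, and in R1 cells 0 passed, at -0.22 to 0.46, where 0.0176% of all genes did. The difference between the responses of the lines passed for 0 of the 7 in this fit, where 1.68% of all genes did. With 12 libraries, CDKN2B alone of the 7 passed in HEK293T cells (edgeR adjusted p = 0.0195), where 7.03% of all genes did.

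Of the 7 partners at the G1/S transition (CDK2, CCNE1, CCNE2, CDC25A, CDK7, CCNH and MNAT1), 0 were called between media in HEK293T cells with 12 libraries and 1 with 11, against 7.03% and 27.7% of all genes. That gene was CCNE2 (cyclin E2, a partner of CDK2 and itself a target of E2F), with 24.3, 27.9 and 28.1 CPM in +Met and 11.7, 13.9 and 14.9 CPM in −Met+Hcy (log2 fold change -1.28, adjusted p = 0.0943 with 12 libraries and 0.000929 with 11). CCNE1 (cyclin E1) had a log2 fold change of 0.14 there (adjusted p = 0.68 with 12 libraries and 0.407 with 11), and CDK2 of -0.26 (adjusted p = 0.421 and 0.161). CCNE1 was lower in R1 than in HEK293T, by -0.65 in +Met (adjusted p = 0.0302) and by -0.84 in −Met+Hcy (adjusted p = 0.00676) on the log2 scale with 12 libraries, and by -0.65 (adjusted p = 0.00141) and -0.77 (adjusted p = 0.00107) with 11. CCNE2 was higher in R1 in −Met+Hcy, by 1.56 with 12 libraries (adjusted p = 0.029) and 0.73 with 11 (adjusted p = 0.0289). The R1 −Met+Hcy libraries had 24.1, 24.2 and 67.2 CPM of CCNE2, the last in the library that stands apart. CCNH (cyclin H, of the CDK-activating kinase) was called lower in R1 with 11 libraries, by -0.94 in +Met (adjusted p = 0.00136, and 0.137 with 12) and by -0.71 in −Met+Hcy (adjusted p = 0.0151, against 0.06 and an adjusted p of 0.939 with 12). Between the lines, 10.2% of all genes were called in +Met and 14.0% in −Met+Hcy with 12 libraries, and 32.7% and 30.3% with 11. Between media in R1 cells 0 of the 7 were called in either fit, where 0.00583% and 0.0176% of all genes were called.

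Among 12 pocket proteins, E2F factors and their partners, 1 was called lower between media in HEK293T cells with 12 libraries, where 7.03% of all genes were called. It was E2F5 (log2 fold change -1.28, adjusted p = 0.0301, and 0.000969 with 11). The median of the list was -0.19 against 0.03 over all genes. With 11 libraries, where 27.7% of all genes were called, 4 were called lower (E2F1, E2F5, TFDP1 and TFDP2) and 1 higher. The latter was RBL1 (p107), a relative of RB1, with 26.8, 36.3 and 29.7 CPM in +Met and 63.2, 59.8 and 46.5 CPM in −Met+Hcy (log2 fold change 0.57, adjusted p = 0.253 with 12 libraries and 0.0135 with 11). RBL2 (p130) had a log2 fold change of 0.31 (adjusted p = 0.0602 with 11 libraries), and E2F1 of -0.46 (adjusted p = 0.433 with 12 libraries and 0.0297 with 11). RB1 and its relative RBL1 thus moved in opposite directions in HEK293T cells in the fit to 11 libraries. In R1 cells 0 of the 12 were called between media in either fit, where 0.00583% and 0.0176% of all genes were called. Between the lines 0 were called with 12 libraries, where 10.2% of all genes were called in +Met and 14.0% in −Met+Hcy. With 11, E2F4 (-0.54, adjusted p = 0.00671), E2F6 (-0.39, adjusted p = 0.0277) and TFDP2 (-0.52, adjusted p = 0.00454) were called lower in R1 in +Met, where 32.7% of all genes were called. In −Met+Hcy E2F1 was called higher (0.56, adjusted p = 0.0177) and E2F6 lower (-0.44, adjusted p = 0.0269), where 30.3% of all genes were called.

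Of 19 classical targets of E2F, 2 were called lower between media in HEK293T cells with 12 libraries and 7 with 11, against 7.03% and 27.7% of all genes called in either direction, with 0 higher in either, and their median log2 fold change was -0.35 against 0.03 over all genes. The 2, named after their values were seen, were RRM2 (a subunit of ribonucleotide reductase, -0.85, adjusted p = 0.0184, and 0.000357 with 11) and MCM6 (a subunit of the replicative helicase, -0.53, adjusted p = 0.0489, and 0.00588 with 11). In R1 cells 0 were called in either fit, where 0.00583% and 0.0176% of all genes were called, and the median was -0.13 with 12 libraries and -0.12 with 11. Between the lines in +Met 2 were called lower in R1 with 12 libraries, RRM2 (-0.72, adjusted p = 0.0295, and 0.000797 with 11) and PCNA (the sliding clamp of replication, -0.94, adjusted p = 0.0353, and 0.00529 with 11), and in −Met+Hcy 0. In these comparisons 10.2% and 14.0% of all genes were called. With 11 libraries 4 were called lower in R1 in +Met (CCNA2 and CDT1 as well), where 32.7% of all genes were called. In −Met+Hcy MCM6 was called higher (0.38, adjusted p = 0.0428) and CDT1, a licensing factor of replication origins, lower (-0.97, adjusted p = 0.00072), where 30.3% of all genes were called.

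Of 14 genes for the turnover and assembly of D cyclins and CDK inhibitors, 1 was called lower between media in HEK293T cells with 12 libraries, where 7.03% of all genes were called. It was CDC37 (a co-chaperone of CDK4, log2 fold change -0.79, adjusted p = 0.0346, and 0.00257 with 11). The median of the list was -0.03. With 11 libraries, where 27.7% of all genes were called, 3 were called higher (AMBRA1, FBXO4 and UBAC1) and 2 lower (CDC37 and RNF123). With 12 libraries 3 of the 14 were called lower in R1 than in HEK293T in +Met, where 10.2% of all genes were called, again named after their values were seen: CDC37 (-0.73, adjusted p = 0.0384, and 0.00349 with 11), CUL1 (-0.76, adjusted p = 0.0254, and 0.000429 with 11) and SKP2 (-0.68, adjusted p = 0.0204, and 0.00254 with 11). With 11 libraries, where 32.7% of all genes were called, these and SKP1 (-1.08, adjusted p = 0.0175) were called lower, and AMBRA1 (0.48, adjusted p = 0.0464), FBXO4 (1.02, adjusted p = 0.00524) and USP2 (0.71, adjusted p = 0.0138) higher. AMBRA1 and FBXO4 take part in the destruction of cyclin D, and USP2 removes ubiquitin from cyclin D1. SKP2, the F-box protein that marks p27 for destruction together with CUL1, had 148, 153 and 162 CPM in HEK293T +Met and 117, 137 and 115 CPM in R1 +Met. In −Met+Hcy it was lower in R1 by -0.77 on the log2 scale (adjusted p = 0.00862), the 1 call in the list there with 12 libraries, where 14.0% of all genes were called. With 11, SKP2 (-0.76, adjusted p = 0.00281) and CUL1 (-0.84, adjusted p = 0.0005) were called lower there, where 30.3% of all genes were called. In R1 cells 0 were called between media in either fit, where 0.00583% and 0.0176% of all genes were called.

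For the members called with 12 libraries, the genes with the most similar profile were sought by the Pearson correlation of log2 CPM over the libraries, among genes with a mean log2 CPM over 2. The highest values for CDKN2C were with HDDC3 (0.987), DCAF4 (0.984) and RHOB (0.979), for RB1 with STK39 (0.978), UGDH (0.972) and IPO8 (0.971), and for CDKN1C with NAIF1 (0.966), PGF (0.94) and ACHE (0.94). With 11 libraries the list for CDKN2C was TOR1A (0.987), C16orf91 (0.987) and PSAT1 (0.986), for RB1 LHX4 (0.983), UBE3C (0.981) and HIF1A (0.979), and for CDKN1C CACNA2D3 (0.968), NAIF1 (0.967) and C1orf56 (0.961). Only NAIF1 appears in both lists of a member. The libraries share their groups and their GC trends, and these correlations are descriptions.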

How the data were processed

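The 12 libraries cover HEK293T and R1 cells, 12 h into +Met or −Met+Hcy medium, with 3 libraries per group. The authors ran kallisto 0.48.0 on GRCh38 transcripts. The values deposited are estimated counts that they summed per Ensembl gene and turned into whole numbers, without scaling. Use of strand is not given in the sources used here. Genes whose counts summed to less than 10 were left out. TMM factors and the quasi-likelihood test of edgeR 4.0.16 (R 4.3.3, one mean per group) were used, with Benjamini-Hochberg adjustment over all genes tested and a threshold of 0.05. Log2 CPM used a prior count of 2. CPM per kb divides by the length of the canonical GENCODE transcript.

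The members, lists and tests were chosen with earlier results of these data known. All 10 members were named, and from the lists those past the threshold with an absolute log2 fold change above 1 and the direct partners CCNE1, CCNE2, CDK2, CDKN1A, RBL1, RBL2 and E2F1. Other list genes (such as RRM2, MCM6, PCNA, CDC37, CUL1, SKP2, CDK9 and CCNG1) were named after their values were seen, to account for small counts. The alternatives were DESeq2 1.42.0, edgeR on the compared groups only, RLE scaling, filterByExpr, no filter, a block on replicate number, a fold threshold, and each library left out. Chosen after seeing the data were column-sum scaling, removal of trends with GC content and length per library (loess, span 0.3), that without R1 −Met+Hcy replicate 3, DESeq2 without that library, and the CDKN1C entries summed. The procedure was also run on simulated data, drawn with the spread of the fit without R1 −Met+Hcy replicate 3. No simulated library stood apart, so that the effect of such a library was not tested there. The replicate numbers were not taken as pairs, since deviations of same-numbered libraries correlated at -0.718 to 0.595.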

Additional observations from a re-analysis of the deposited data

Results flagged for a closer look

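Differences between the responses of the lines were sought for the members in the main fit and its alternatives. The list genes were looked at only in the edgeR fits to 12 libraries and without R1 −Met+Hcy replicate 3. For 2 genes the difference passed a test of the difference itself. Neither passed in the edgeR fit to all 12 libraries, and other settings were not examined for the list genes. With each library's trend on GC content and transcript length removed and R1 −Met+Hcy replicate 3 left out, an alternative chosen after seeing the data, the response of CDKN2C was smaller in R1 than in HEK293T cells by -0.987 on the log2 scale (edgeR, adjusted p = 0.00436), where 8.53% of all genes passed. It was -0.94 with 12 libraries (adjusted p = 0.496), and over its other alternatives the adjusted p ran from 0.127 to 0.791. Without R1 −Met+Hcy replicate 3, the response of CCNT1, the cyclin partner of CDK9, was smaller in R1 cells by -1.29 on the log2 scale (adjusted p = 0.0251, and 0.309 with 12 libraries). In that fit 1.68% of all genes passed.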

How the results depend on the processing

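The number of members called changed with the setting, and so did the share of all genes called, given in brackets. Between media in HEK293T cells it was 0 with 12 libraries (7.03%), 2 with DESeq2 (13.9%), 5 with edgeR on the compared groups only (34.2%), 1 with column-sum scaling (11.7%), 4 with the GC and length trend removed (19.9%) and 7 with this and R1 −Met+Hcy replicate 3 left out (38.1%), 5 with DESeq2 without that library (31.8%), 4 with the CDKN1C entries summed without it (27.7%), and 0 to 5 with each library left out (1.7 to 27.7%). Between the lines in +Met it was 1 with 12 libraries (10.2%), 0 with RLE scaling (10.1%), 0 without a filter (8.24%) and 0 with the replicate number as a block (6.54%), 5 on the compared groups only (30.0%), 2 with column-sum scaling (15.2%), 4 with the trend removed (21.1%) and 6 with this and that library left out (39.4%), 7 with DESeq2 (36.8%) and 6 with the summed entries (32.7%), both without that library, and 0 to 6 with each library left out (3.67 to 32.7%). Between the lines in −Met+Hcy it was 2 with 12 libraries (14.0%), 0 on the compared groups only (3.01%), 5 with the trend removed (29.9%) and 5 with this and that library left out (38.9%), 4 with DESeq2 (34.8%) and 4 with the summed entries (30.3%) without that library, and 2 to 4 with each library left out (6.34 to 30.3%). Between media in R1 cells it was 0 throughout (0 to 0.384%). For the difference of the responses it was 0 (0 to 6.80%) except 1 with the trend removed and that library left out (8.53%). FilterByExpr and the added fold threshold left all of these counts as they were, and the block changed no other count. Leaving out R1 −Met+Hcy replicate 3 lowers the dispersion, and the causes of the other changes were not tested. The depth limits CDKN1C most, at 9 to 27 counts per library in HEK293T +Met.

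Changes of sign were in log2 fold changes whose 12-library value was not called. Between media in R1 cells, leaving out each library gave -0.124 to 0.397 for CDKN1B, -0.48 to 0.457 for CDKN1C, -0.409 to 0.239 for CDKN2C and -0.337 to 0.591 for RB1. With the trend removed, RB1 was at -0.134 and CDKN1C at 0.341. With that and R1 −Met+Hcy replicate 3 left out, CDKN1B, RB1, CDKN2C and CDKN1C were at -0.138, -0.361, 0.208 and 0.481, and with DESeq2 without that library at -0.138, -0.349, 0.228 and 0.447. CDKN1C was at 0.013 with column-sum scaling, and with its entries summed at 0.082, or 0.464 without that library. For the difference of the responses, leaving out each library gave -0.398 to 0.478 for CCND1, -0.719 to 0.082 for CCND2, -0.464 to 0.311 for CCND3, -0.446 to 0.143 for CDK4, -0.494 to 0.027 for CDKN1B and -0.575 to 0.028 for CDKN2A. CCND3 was at 0.105 with the trend removed. CDK4, CCND2 and CCND3 were at 0.145, 0.221 and 0.27 with that library left out too. CDKN2A, CCND2, CDK4 and CCND3 were at 0.039, 0.09, 0.15 and 0.318 with DESeq2 without it, and CCND1 was at -0.274 with column-sum scaling and -0.127 with the replicate block. Between the lines in +Met, CDKN2C was at 0.208 and 0.206 with the trend removed, CDKN2A and CCND2 were at 0.084 and 0.214 with column-sum scaling, and leaving out each library gave -0.248 to 0.028 for CCND2. With column-sum scaling CDKN2A and CDK4 were at 0.048 and 0.054 between media in HEK293T cells.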

Other observations

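Among 10 CDKs and cyclins that act outside G1, 2 were called higher and 1 lower in HEK293T cells in −Met+Hcy with 12 libraries. In that fit 7.03% of all genes were called. Without R1 −Met+Hcy replicate 3, 2 were called higher and 4 lower, where 27.7% of all genes were called. The 2 higher genes form the elongation factor P-TEFb. CCNT1 (cyclin T1) had 36.7, 51.0 and 52.5 CPM in +Met and 118, 136 and 134 CPM in −Met+Hcy (log2 fold change 1.18, edgeR adjusted p = 0.00799 with 12 libraries and 0.000348 without R1 −Met+Hcy replicate 3). CDK9 had 38.2, 34.6 and 33.3 CPM in +Met and 90.0, 91.0 and 69.9 CPM in −Met+Hcy (0.94, adjusted p = 0.0082, and 0.000411 without that library). In R1 cells CCNT1 had 53.5, 63.2 and 51.5 CPM in +Met and 56.6, 50.8 and 64.4 CPM in −Met+Hcy, so that the media overlapped. Both genes were lower in R1 than in HEK293T cells in −Met+Hcy, CCNT1 by -1.18 on the log2 scale (adjusted p = 0.00386, and -1.38 with 0.000224 without that library) and CDK9 by -0.72 (adjusted p = 0.0156, and -0.64 with 0.00737). They were the 2 calls of the list there with 12 libraries, where 14.0% of all genes were called. Without that library CCNG2 was called higher there (0.43, adjusted p = 0.0432), where 30.3% of all genes were called. The remaining call between media in HEK293T cells with 12 libraries was CCNG1 (-0.76, adjusted p = 0.0436, and 0.00847 without that library). Without that library CCNA2, CCNB2 and CCNC were called lower as well. The median of the 10 was -0.64 against 0.03 over all genes. Between the lines in +Met, 2 were called lower in R1 and 1 higher with 12 libraries, where 10.2% of all genes were called. CCNC (cyclin C, of the Mediator kinase module) was lower by -1.25 (adjusted p = 0.048, and -1.24 with 0.00831 without that library). CCNG1 was lower by -0.70 (adjusted p = 0.0497), and CCNG2 was higher by 0.70 (adjusted p = 0.0297).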
